A study of Mus musculus with 16 samples.

Results

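Solute carriers, the Slc genes, are the largest group of membrane transporters in mammals. They move amino acids, sugars, nucleosides, vitamins, metals and inorganic ions across the plasma membrane and across the membranes of organelles, and most of the Slc25 family carry metabolites through the inner mitochondrial membrane. T cells that leave quiescence import more amino acids, glucose and iron, and transporters such as the CD98 complex of Slc3a2 and Slc7a5 are known for this in activated T cells. GABP is a transcription factor of the Ets family whose GABPα subunit binds DNA at sites with a GGAA core, and its known targets include many housekeeping and mitochondrial genes.

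The solute carriers described here were the genes whose symbol began with Slc and a digit, each represented by the probe set naming that gene alone with the highest mean, with a mean of at least 5 on the log2 scale over 16 arrays. There were 131 such genes, called members below, out of 262 Slc genes measured and 12394 genes in all. They came from 38 families. The symbol rule also took in Slc9a3r1, a scaffold protein that binds the exchanger Slc9a3, its relative Slc9a3r2 and Slc4a1ap, a protein named for binding the anion exchanger Slc4a1, none of which is itself a transporter. The array level chose the members, so levels are given as a description. The members just inside the limit were Slc35a3 with a mean of 5.02 and Slc2a9 with 5.05, and the Slc genes just outside were Slc39a8 with 4.99 and Slc27a1 with 4.89. In 20 members at least 1 group mean lay under 5, so that such a member could pass through the groups where it was high.

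RNA was measured in T cells that had been sorted by flow cytometry from spleen and lymph nodes as CD25 negative, CD62L high and CD44 low, the naive phenotype. KO mice carried CD4Cre and floxed Gabpa alleles (CD4CreGabpaf/f), and WT mice carried the floxed alleles without Cre (Gabpaf/f). The CD4Cre transgene acts from the CD4 and CD8 double-positive thymocyte onwards, so CD4 and CD8 cells of the KO mice share it. Cells were lysed after 18 h with antibodies to CD3 and CD28 plus IL-2, or directly at 0 h. By the study's methods the cells of a sort were divided between these times, but the labels do not tie a replicate number to a sort. The 8 groups, KO and WT cells of the CD4 and CD8 lineages at 18 h and 0 h, had 2 arrays each, labelled as biological replicates. The age of the mice and any pooling are not given in the labels.

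Gabpa RNA was not lower in the libraries labelled KO, although the paper's immunoblot found hardly any GABPα protein in CD4 and CD8 T cells of KO mice. Gabpa read between 9.09 and 9.79 in the 8 libraries labelled KO and between 8.74 and 9.34 in the 8 labelled WT. In CD4 cells at 18 h KO was higher by 0.72 ± 0.20 (adjusted p = 0.0441). Its dimmer probe set read 7.62 to 9.20 in KO and 6.29 to 7.69 in WT. Within each lineage and time both KO arrays of that probe set lay above both WT arrays. The sources used here do not say whether these probe sets lie in the deleted part of the gene, so KO and WT stand below for the libraries as labelled. 1 library, CD8 KO 18 h replicate 2, stood apart: the mean 3′ minus 5′ difference of its actin and Gapdh control probe sets was 3.76 on the log2 scale, against 0.46 to 1.58 in the other 15. Over the members, the replicates of CD8 KO cells at 18 h correlated with r = 0.896, and those of the other groups with r between 0.959 and 0.990. Lineage markers fitted the labels: Cd8a and Cd8b1 averaged 10.1 to 12.3 in CD8 arrays and 5.26 to 8.04 in CD4 arrays, the highest CD4 value being that of CD4 WT 0 h replicate 1. B cell, myeloid and erythroid markers averaged 3.01 to 4.76 in all arrays.

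By level, the carriers of mitochondrial energy exchange led. Slc25a5, an ADP and ATP exchanger of the inner mitochondrial membrane, averaged 12.46 over the arrays (lowest 11.90, highest 13.06), and Slc25a3, the mitochondrial phosphate carrier, averaged 11.99. The next were Slc44a2, a choline transporter-like protein, with 10.88, the second ADP and ATP exchanger Slc25a4 with 10.60 and the scaffold Slc9a3r1 with 10.48. Levels of different probe sets depend on their probes, so this order describes the arrays and not amounts of transcript. The median over the members was 6.92. By the substrates of the families, 30 members belonged to the Slc25 family, 22 were placed with metals, 21 with nucleosides, nucleotide sugars and vitamins, 18 with amino acids, 14 with inorganic ions, 13 with sugars and monocarboxylates and 13 with other substrates. The placing went by family, so that Slc5a6, a vitamin carrier, stands with the sugar group, and the 14 of the ion group hold Slc9a3r1, Slc9a3r2 and Slc4a1ap.

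The first question was which transporters differ between the cells labelled KO and those labelled WT. A member was called where the adjusted p of limma's test was under 0.05 over all 12394 genes and the fold was over 1.5. At 0 h, 4 members differed between CD4 KO and CD4 WT cells, all lower in KO, and 7 differed between CD8 KO and CD8 WT cells, of which 5 were lower in KO. At 18 h, 15 differed in CD4 cells, 7 higher and 8 lower, and 9 differed in CD8 cells, 4 higher and 5 lower. Slc7a3, among the 7 higher, was a member only through its KO 18 h levels. The called shares of the members were 3.05%, 5.34%, 11.5% and 6.87% in these comparisons. Over all genes tested the shares were 1.27%, 1.63%, 6.86% and 2.75%, and over the 7133 genes with a mean of at least 5 they were 1.79%, 2.41%, 10.6% and 4.19%. By direction at 0 h, 0.533% of all genes were higher and 0.742% lower in CD4 KO cells (0.771% and 1.02% of the genes of that level), and 1.13% were higher and 0.5% lower in CD8 KO cells (1.71% and 0.701%). At 18 h, 2.72% were higher and 4.14% lower in CD4 KO cells (4.05% and 6.59%), and 1.59% were higher and 1.16% lower in CD8 KO cells (2.4% and 1.79%). The median KO minus WT difference of the members was -0.06, 0.07, 0.08 and 0.10 on the log2 scale, beside -0.01, 0.08, 0.01 and 0.09 over the genes of that level. The counts fell at 0 h in each lineage without any 1 of the 4 arrays compared, and in CD4 cells at 18 h without either CD4 KO array. Such a run leaves 1 array in a group. With replicate number as a block within each lineage, 16 members were called in CD8 cells at 18 h. In all, 19 members (14.5%) were called in at least 1 of these comparisons, as were 8.96% of all genes and 13.6% of the genes of that level, and the sugar transporter Slc50a1 was the 1 member called in all 4.

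**Figure D1:**
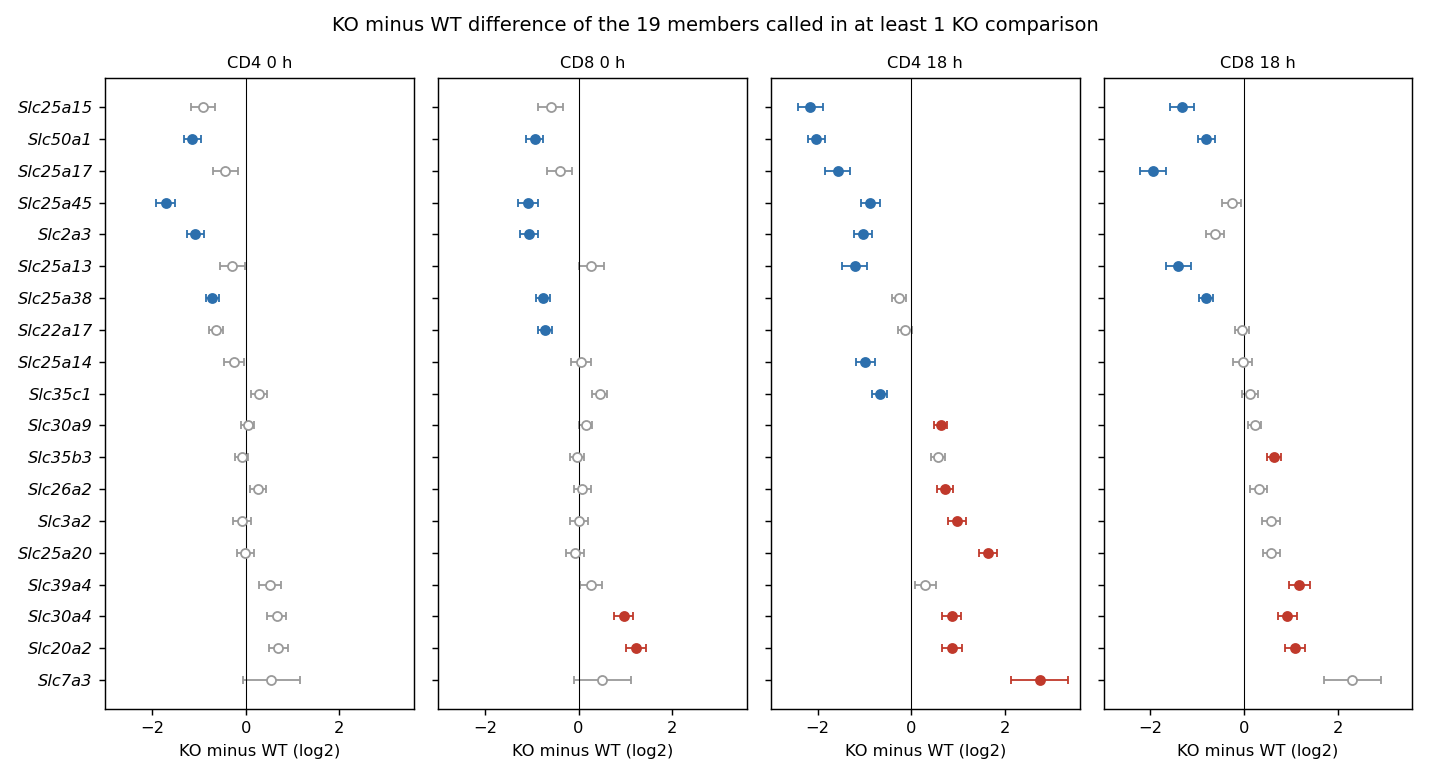
KO minus WT difference (log2, x axis) of the 19 members called in at least 1 KO comparison, shown for each lineage at 0 h and at 18 h. Points are the limma estimates with their standard errors (2 arrays per group), filled where called (red higher and blue lower in KO) and open where not. The blue points of Slc50a1 appear in all 4 panels, at -1.15, -0.94, -2.03 and -0.80.

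Slc50a1, a sugar transporter of the SWEET family, was lower in KO cells of both lineages at both times. In CD4 cells at 18 h its log2 values were 5.92 and 5.46 in KO and 7.68 and 7.77 in WT. In CD4 cells at 0 h they were 7.76 and 7.69 in KO and 8.90 and 8.85 in WT. No KO array reached the WT arrays of its group in either comparison. The log2 difference was -2.03 ± 0.18 at 18 h (standard error, a 4.09-fold lower level, adjusted p = 3.45e-05) and -1.15 ± 0.18 at 0 h (adjusted p = 0.00909). In CD8 cells its values were 7.01 and 7.36 in KO and 8.10 and 7.88 in WT at 18 h, and 7.61 and 7.86 in KO and 8.69 and 8.67 in WT at 0 h. Both CD8 differences were smaller, -0.80 ± 0.18 at 18 h and -0.94 ± 0.18 at 0 h (adjusted p = 0.0365 and 0.0232). The CD4 18 h call held whichever of the 16 arrays was left out, while each 0 h call was lost without any 1 of the 4 arrays compared, with differences then between -1.19 and -1.11 in CD4 cells and between -1.07 and -0.81 in CD8 cells. The CD8 18 h call was lost in 11 of the 16 runs, among them those without either WT array, with differences between -0.98 and -0.63.

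Slc2a3, the glucose transporter GLUT3, was also lower in KO cells. At 0 h it read 8.05 and 7.74 in CD4 KO cells and 9.11 and 8.84 in CD4 WT cells, and 8.18 and 8.45 in CD8 KO cells and 9.38 and 9.36 in CD8 WT cells. The 0 h differences were -1.08 ± 0.19 in CD4 cells (adjusted p = 0.0149) and -1.06 ± 0.19 in CD8 cells (adjusted p = 0.0157), about the same size in each lineage. At 18 h the CD4 values were 6.94 and 7.17 in KO and 8.10 and 8.07 in WT, a difference of -1.03 ± 0.19 (adjusted p = 0.00547), and the CD8 difference of -0.61 ± 0.19 did not pass (adjusted p = 0.111). The probe set used and a second one of the same type gave like values, -1.08 and -1.03 in CD4 cells at 0 h. The remaining Slc2a3 probe sets had means of 2.97 and 2.60 and moved by less than 0.21 in any KO comparison. Each 0 h call was lost without any 1 of the 4 arrays compared, and the CD4 18 h call without CD4 KO 18 h replicate 1, where the difference was between -1.15 and -0.91. Slc2a1, the glucose transporter GLUT1, read 8.91 and 8.81 in CD4 KO cells at 18 h and 9.44 and 8.71 in CD4 WT cells, with no call in any comparison.

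Among the 30 members of the Slc25 family, 7 (23.3%) were called in at least 1 KO comparison, and 6 of the 7 were lower in KO. The share was 14.5% of all members, 13.6% of the genes with a mean of at least 5 and 8.96% of all genes. Shares by direction are given above for each comparison. Whether the family differs from other genes was not tested. The 6 lower ones fell into carriers that were lower already in unstimulated KO cells, Slc25a45 and Slc25a38, and carriers called at 18 h alone. The latter were Slc25a15, Slc25a17, Slc25a13 and Slc25a14. Slc25a20, the seventh, was higher in KO. The 100 bases before the annotated start of 4 of them are shown because GABPα binds Ets sites with a GGAA core, and the capitals mark CCGGAAG or CGGAAG on the strand shown, or CTTCCG where the match is on the other strand. CGGAAG is contained in CCGGAAG. The 4 shown are the called Slc25 members with such a match, and Slc25a15, Slc25a13 and Slc25a14 had none. In the same 100 bases before all 32851 annotated starts looked at, 4.52% held CCGGAAG and 8.19% held CGGAAG. The sequences are RefSeq's for GRCm38.p6, at chr19:5877722-5877821 on the plus strand for Slc25a45, chr9:120110282-120110381 on the plus strand for Slc25a38, chr15:81360766-81360865 on the minus strand for Slc25a17 and chr9:108662036-108662135 on the plus strand for Slc25a20.
Slc25a45: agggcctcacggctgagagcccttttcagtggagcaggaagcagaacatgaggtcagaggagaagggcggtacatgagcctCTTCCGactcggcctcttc
Slc25a38: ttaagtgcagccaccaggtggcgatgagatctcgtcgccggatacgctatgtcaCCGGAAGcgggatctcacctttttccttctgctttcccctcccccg
Slc25a17: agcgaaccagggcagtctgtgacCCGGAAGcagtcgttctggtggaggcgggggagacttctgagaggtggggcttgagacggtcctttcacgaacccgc
Slc25a20: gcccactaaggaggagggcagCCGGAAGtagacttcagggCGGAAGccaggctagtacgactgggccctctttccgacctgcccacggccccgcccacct

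The table of promoter windows, 300 bases each, held 98 of the 131 members. CCGGAAG stood on either strand in a window of 27 of the 98 (27.6%) and of 1403 of the 5885 genes with a mean of at least 5 that the table held (23.8%). It stood in a window of 9.93% of all 27025 genes of the table, and in 8.86% of its 32851 windows counted singly. CGGAAG stood in 39 of the 98 members (39.8%), in 40.1% of the genes with a mean of at least 5 and in 18.8% of all genes of the table (16.9% of windows). Among the 19 members called in a KO comparison, 14 were in the table and 7 of these held CCGGAAG. These were Slc25a38, Slc25a17 and Slc35c1, called lower in KO cells, and Slc25a20, Slc3a2, Slc30a9 and Slc35b3, called higher. CGGAAG alone stood in the windows of Slc25a45 and Slc50a1, called lower. These letters were not in the windows of Slc25a15, Slc25a13, Slc25a14, Slc22a17 and Slc30a4. A match is a run of letters and was not tested for binding.

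Slc25a45, a mitochondrial carrier, had the largest KO minus WT difference of the members at 0 h in CD4 cells. Its values were 7.02 and 7.26 in CD4 KO cells and 8.91 and 8.79 in CD4 WT cells, and 7.42 and 7.39 in CD8 KO cells and 8.56 and 8.41 in CD8 WT cells. KO and WT arrays did not overlap in either lineage. The differences were -1.71 ± 0.21 in CD4 cells (a 3.27-fold lower level, adjusted p = 0.00143) and -1.08 ± 0.21 in CD8 cells (adjusted p = 0.0221). At 18 h it read 5.77 and 5.50 in CD4 KO cells and 6.28 and 6.73 in CD4 WT cells (-0.87 ± 0.21, adjusted p = 0.0218), and in CD8 cells the difference of -0.27 ± 0.21 did not pass (adjusted p = 0.594). The CD4 0 h call held in all 16 runs that left out an array. The CD8 0 h call was lost without any 1 of its 4 arrays (-1.15 to -1.0), and the CD4 18 h call without CD4 WT replicate 2 or either CD4 KO replicate (-1.10 to -0.65). Of 8 memory and effector T cell markers, 2 (Cxcr3 and Ahnak) were called lower in CD4 KO cells at 0 h and none higher. Gzmb and Il2rb read higher in KO on average, and the other markers lower. The mean over the 8 genes was 5.0 to 5.92 in CD4 KO cells and 5.74 to 6.56 in CD4 WT cells, so the groups overlapped. Of 4 NK cell markers, Fcgr3 was called lower too, with 4.72 and 4.93 in CD4 KO cells and 6.53 and 5.61 in CD4 WT cells. The part of these markers in the results was not tested.

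Slc25a38 imports glycine into mitochondria for haem synthesis. At 0 h it read 6.63 and 6.66 in CD4 KO cells and 7.24 and 7.47 in CD4 WT cells, and 6.52 and 6.62 in CD8 KO cells and 7.40 and 7.25 in CD8 WT cells. At 18 h it read 6.43 and 6.35 in CD8 KO cells and 7.13 and 7.28 in CD8 WT cells. The groups were apart in all of these comparisons. The differences were -0.71 ± 0.15 in CD4 cells and -0.75 ± 0.15 in CD8 cells at 0 h (adjusted p = 0.0362 and 0.0239), and -0.82 ± 0.15 in CD8 cells at 18 h (adjusted p = 0.0123). In CD4 cells at 18 h the difference was -0.27 ± 0.15 (adjusted p = 0.407). Its CD4 0 h call held in 2 of 16 runs with an array left out (-0.83 to -0.60), its CD8 0 h call was lost without any 1 of the 4 arrays compared (-0.83 to -0.68), and its CD8 18 h call without CD8 WT or CD8 KO replicate 2 (-0.89 to -0.74).

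Slc25a15, the ornithine carrier of the urea cycle, differed most at 18 h. It read 6.01 and 6.23 in CD4 KO cells and 8.29 and 8.26 in CD4 WT cells, and 5.89 and 6.87 in CD8 KO cells and 7.62 and 7.79 in CD8 WT cells. All KO arrays lay below all WT arrays. The differences were -2.16 ± 0.26 in CD4 cells (a 4.47-fold lower level, adjusted p = 0.000355) and -1.33 ± 0.26 in CD8 cells (adjusted p = 0.0202). At 0 h the differences of -0.91 ± 0.26 in CD4 cells and -0.60 ± 0.26 in CD8 cells did not pass (adjusted p = 0.161 and 0.443). In WT cells Slc25a15 rose with stimulation, by 1.55 ± 0.26 in CD4 cells (adjusted p = 0.000655) and 0.99 ± 0.26 in CD8 cells (adjusted p = 0.0217). In KO cells the 18 h minus 0 h differences were 0.30 ± 0.26 in CD4 cells and 0.25 ± 0.26 in CD8 cells (adjusted p = 0.511 and 0.677). The difference of this response between KO and WT in CD4 cells was -1.25 ± 0.37 and did not pass (adjusted p = 0.170), so a loss of the response in KO was not shown. A dimmer probe set differed by -1.27 (CD4) and -0.85 (CD8) between KO and WT at 18 h. The CD4 18 h call held in every run that left out an array, and the CD8 18 h call was lost without CD8 WT replicate 2, with differences between -1.82 and -0.84.

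Slc25a17, a peroxisomal carrier of CoA and other nucleotide cofactors, read 6.43 and 6.12 in CD4 KO cells and 8.06 and 7.64 in CD4 WT cells at 18 h. In CD8 cells at 18 h it read 5.99 and 5.23 in KO and 7.28 and 7.83 in WT. The differences were -1.58 ± 0.27 in CD4 cells (adjusted p = 0.00366) and -1.94 ± 0.27 in CD8 cells (adjusted p = 0.00282), with no overlap of the groups. At 0 h they were -0.44 ± 0.27 in CD4 cells and -0.41 ± 0.27 in CD8 cells and did not pass (adjusted p = 0.633 and 0.666). The CD8 call held in all 16 runs that left out an array (-2.33 to -1.56), and the CD4 call was lost without CD4 KO 18 h replicate 2 (-1.78 to -1.37). A second probe set, with a mean of 3.06, moved by less than 0.41 in any KO comparison.

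Slc25a13, the aspartate and glutamate carrier citrin, showed the same order at 18 h. It read 5.46 and 6.03 in CD4 KO cells and 6.96 and 6.96 in CD4 WT cells, and 5.72 and 5.55 in CD8 KO cells and 6.63 and 7.45 in CD8 WT cells. The differences were -1.21 ± 0.27 (adjusted p = 0.0163) and -1.41 ± 0.27 (adjusted p = 0.0182). In WT cells it rose by 1.94 ± 0.27 with stimulation in each lineage, while in KO cells it rose by 1.01 ± 0.27 in CD4 cells (adjusted p = 0.0133) and its CD8 difference was 0.25 ± 0.27 (adjusted p = 0.684). The CD8 difference of the responses, -1.68 ± 0.38, did not pass (adjusted p = 0.125). The CD4 18 h call was lost without either CD4 WT array or without CD4 KO replicate 1 (-1.50 to -0.93), and the CD8 call without CD8 WT or CD8 KO replicate 2 (-1.82 to -1.0). Slc25a14, a member of the uncoupling protein branch, was lower in CD4 KO cells at 18 h with 5.61 and 5.25, against 6.51 and 6.31 in CD4 WT cells (-0.98 ± 0.21, adjusted p = 0.0144), and differed by -0.03 ± 0.21 in CD8 cells. Its CD4 call was lost without CD4 WT replicate 1 or CD4 KO replicate 2 (-1.16 to -0.80).

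**Figure D2:**
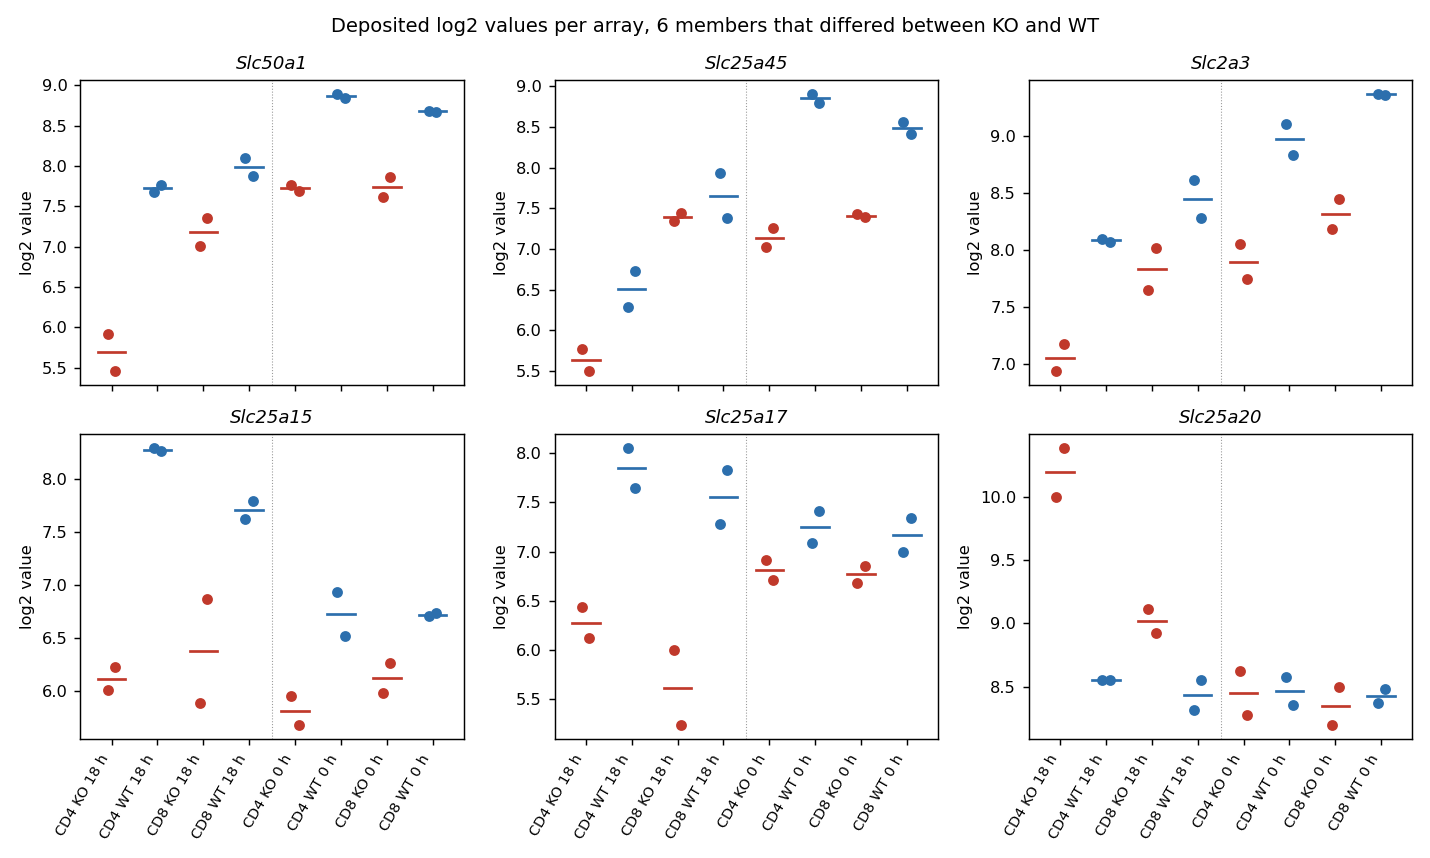
Deposited log2 value of each array (points) and group mean (bars) for Slc50a1, Slc25a45, Slc2a3, Slc25a15, Slc25a17 and Slc25a20, with KO in red, WT in blue and the 18 h groups left of the dotted line. Slc25a20 stands at 9.99 and 10.38 in CD4 KO cells at 18 h, above all other arrays, and Slc25a15 stands at 6.01 and 6.23 there, against 8.29 and 8.26 in CD4 WT cells.

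Slc25a20, which carries acylcarnitines into mitochondria for fatty acid oxidation, went the other way. At 18 h it read 9.99 and 10.38 in CD4 KO cells and 8.56 and 8.55 in CD4 WT cells. At 0 h the values were 8.62 and 8.28 in CD4 KO cells and 8.57 and 8.35 in CD4 WT cells, so the groups overlapped. The 18 h difference was 1.64 ± 0.19 (a 3.11-fold higher level, adjusted p = 0.000217) and the 0 h difference -0.01 ± 0.19. The test of the difference between the KO and WT responses gave 1.65 ± 0.26 in CD4 cells (adjusted p = 0.0109), and no other member was called by it. With the replicate number as a block it was called too (adjusted p = 0.00894 with a block within each lineage and 0.0202 with a block of lineage, genotype and number), and so were 3 further members under each block. In CD8 cells at 18 h it read 9.11 and 8.92 in KO and 8.32 and 8.56 in WT (0.58 ± 0.19, adjusted p = 0.120). The effect in CD8 minus that in CD4 cells, -1.05 ± 0.26, did not pass (adjusted p = 0.280). A second probe set gave 1.73 for the CD4 18 h difference. The 18 h call held whichever array was left out, and the call of the response difference was lost without CD4 WT 0 h replicate 1, CD4 KO 0 h replicate 2, CD4 WT 18 h replicate 1 or CD4 KO 18 h replicate 2, with values between 1.45 and 1.84.

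Among amino acid transporters, members were called between KO and WT at 18 h in CD4 cells alone, 2 of 18, both higher in KO. Of these, Slc7a3 was a member only through its KO 18 h groups. Slc3a2, the heavy chain of the CD98 complex, read 10.16 and 9.99 in CD4 KO cells and 9.36 and 8.85 in CD4 WT cells (0.97 ± 0.19, adjusted p = 0.00860). The call was lost without CD4 WT replicate 2 or CD4 KO replicate 1 (0.71 to 1.23). Its partner Slc7a5, which carries large neutral amino acids, read 9.44 and 9.63 in CD4 KO cells and 9.59 and 9.36 in CD4 WT cells and was not called. Slc7a3, a cationic amino acid transporter, read 8.02 and 7.29 in CD4 KO cells and 6.04 and 3.78 in CD4 WT cells (2.75 ± 0.61, adjusted p = 0.0162). In CD8 cells it read 6.62 and 7.72 in KO and 4.17 and 5.54 in WT (2.32 ± 0.61, adjusted p = 0.0664). Its WT replicates at 18 h were far apart in each lineage, with group means under the level limit. It lay between 3.69 and 4.48 in every 0 h array. Its mean of 5.12 thus passed the limit through the KO 18 h groups. That choice favours a gene higher in KO, so the KO minus WT difference of Slc7a3 is a description. Without CD4 WT replicate 2 or either CD4 KO replicate the CD4 call was lost, with differences between 1.62 and 3.88.

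The called transporters of zinc and of inorganic ions were all higher in KO cells. Slc30a4, which moves zinc into vesicles, read 9.45 and 9.39 in CD4 KO cells and 8.60 and 8.53 in CD4 WT cells at 18 h, and 10.52 and 10.61 in CD8 KO cells and 9.71 and 9.57 in CD8 WT cells. At 0 h it read 8.69 and 9.08 in CD8 KO cells and 7.74 and 8.11 in CD8 WT cells. The differences were 0.86 ± 0.20, 0.93 ± 0.20 and 0.96 ± 0.20 in these comparisons (adjusted p = 0.0206, 0.0298 and 0.0314), and 0.66 ± 0.20 in CD4 cells at 0 h (adjusted p = 0.182). The calls were lost without most of the arrays compared, with differences between 0.83 and 0.90 in CD4 cells and between 0.85 and 1.0 in CD8 cells at 18 h, and between 0.77 and 1.16 in CD8 cells at 0 h. Slc39a4, a zinc importer, read 6.27 and 6.41 in CD8 KO cells and 5.16 and 5.15 in CD8 WT cells at 18 h (1.19 ± 0.23, adjusted p = 0.0182). Slc30a9, of the same zinc family as Slc30a4, was called higher in CD4 KO cells at 18 h by 0.63 ± 0.14 (adjusted p = 0.0190), with 8.55 and 8.86 in KO and 8.05 and 8.11 in WT.

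Slc20a2, a sodium-dependent phosphate transporter, read 7.26 and 7.40 in CD8 KO cells and 6.13 and 6.08 in CD8 WT cells at 0 h (1.22 ± 0.21, adjusted p = 0.0126). It was called at 18 h in both lineages too, with differences of 0.88 ± 0.21 in CD4 cells and 1.10 ± 0.21 in CD8 cells (adjusted p = 0.0245 and 0.0182). The probe sets of this gene disagreed: the second, with a mean of 6.11, differed by -0.03 in CD8 cells at 0 h, 0.27 in CD4 cells at 18 h and -0.23 in CD8 cells at 18 h. The rise of Slc20a2 therefore rests on 1 probe set. Its calls were lost without any 1 of the arrays compared at 0 h (1.15 to 1.29) and in CD4 cells at 18 h (0.79 to 0.97), and without either CD8 WT array or CD8 KO replicate 2 in CD8 cells at 18 h (0.79 to 1.41). Slc26a2, a sulfate transporter, was higher in CD4 KO cells at 18 h with 7.54 and 7.38, against 6.82 and 6.65 in CD4 WT cells (0.72 ± 0.18, adjusted p = 0.0263).

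The remaining called members were nucleotide sugar carriers and a receptor. Slc35c1, the GDP-fucose carrier of the Golgi, was lower in CD4 KO cells at 18 h with 5.97 and 6.07, against 6.61 and 6.77 in CD4 WT cells (-0.68 ± 0.17, adjusted p = 0.0273), while its CD8 difference was 0.13 ± 0.17. Slc35b3, which brings the sulfate donor PAPS into the Golgi, was higher in CD8 KO cells at 18 h with 9.44 and 9.51, against 8.97 and 8.70 in CD8 WT cells (0.64 ± 0.14, adjusted p = 0.0358). Its CD4 difference of 0.57 ± 0.14 passed the test (adjusted p = 0.0317) but not the fold limit. Slc22a17, a receptor for lipocalin-2, was lower in CD8 KO cells at 0 h with 4.80 and 4.77, against 5.43 and 5.58 in CD8 WT cells (-0.72 ± 0.15, adjusted p = 0.0345). The calls of Slc35c1, Slc26a2, Slc30a9, Slc39a4, Slc35b3 and Slc22a17 were each lost without at least 3 of the arrays, with ranges of -0.75 to -0.60, 0.64 to 0.81, 0.47 to 0.78, 1.11 to 1.26, 0.51 to 0.78 and -0.79 to -0.64.

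The KO effect was compared between the lineages. The members called lower in KO at 0 h were the same 4 in CD4 cells (4 of 4) and CD8 cells (4 of 5), namely Slc25a45, Slc50a1, Slc2a3 and Slc25a38. Of all genes called lower at 0 h, 53.3% of those in CD4 cells and 79% of those in CD8 cells were shared. At 18 h the lineages shared 4 lower members, 4 of 8 in CD4 cells and 4 of 5 in CD8 cells (Slc25a13, Slc25a15, Slc25a17 and Slc50a1), and 2 higher members, 2 of 7 in CD4 cells and 2 of 4 in CD8 cells (Slc20a2 and Slc30a4). Of all genes called at 18 h, the shared ones made up 22.6% of the lower in CD4 cells and 80.6% in CD8 cells, and 25.5% and 43.7% of the higher. No member's KO effect differed between CD8 and CD4 cells by limma's test of that difference at either time, with 5 members at an unadjusted p under 0.05 at 0 h and 15 at 18 h. Over all genes, 0 differed at 0 h and 5 (0.0403%) at 18 h. Over the 131 members the KO minus WT differences of the lineages correlated with r = 0.54 at 0 h and r = 0.63 at 18 h, and over the 7133 genes at that level with r = 0.47 and 0.57. The points here are genes, not replicates. The 8 Slc genes of the study's own list of differentially expressed genes (Slc25a45, Slc50a1, Slc2a3, Slc25a15, Slc25a17, Slc25a13, Slc30a4 and Slc20a2) were each called in at least 1 KO comparison here, but that list had been chosen on these samples and is not independent evidence.

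The CD8 comparison at 18 h changed with the array left out, the library that stood apart among others. Leaving out an array of this comparison leaves 1 in its group. Without CD8 KO 18 h replicate 2, 3 members were called in place of 9, all lower in KO: Slc25a15 (-1.82 ± 0.21, adjusted p = 0.00123), Slc25a17 (-1.56 ± 0.27, adjusted p = 0.0165) and Slc50a1 (-0.98 ± 0.20, adjusted p = 0.0359). Without replicate 1 of that group, 35 were called, and without CD8 WT 18 h replicate 2, 1 was called. The differences of Slc25a13 (-1.32), Slc25a38 (-0.78), Slc30a4 (0.88), Slc39a4 (1.11), Slc20a2 (0.79) and Slc35b3 (0.61) kept their direction without the library, at adjusted p between 0.0544 and 0.131. Memory and effector T cell markers averaged 7.33 to 7.47 in CD8 KO cells and 7.01 to 7.10 in CD8 WT cells at 18 h. Of the 8, 1 (Ahnak) was called higher in KO. S100a4, S100a6 and Ccl5 read higher in KO on average and Cd44, Cxcr3, Il2rb and Gzmb lower, none of them called. The part of these markers was not tested.

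The second question was how the carriers change when naive cells are activated. In CD4 KO cells 45 members differed between 18 h and 0 h, 26 higher and 19 lower at 18 h, and in CD4 WT cells 43 did, 22 higher and 21 lower. In CD8 KO cells 20 differed, 12 higher and 8 lower, and in CD8 WT cells 26, 13 in each direction. The shares of the members were 34.4%, 32.8%, 15.3% and 19.8%. The shares of all genes were 24.2%, 26.2%, 7.54% and 15.2%, and of the genes with a mean of at least 5 they were 38.4%, 41.9%, 11.8% and 24.7%. By direction, 11.1% of all genes were higher and 13.2% lower in CD4 KO cells (17.1% and 21.3% of the genes of that level), and 12.2% higher and 14% lower in CD4 WT cells (19.7% and 22.2%). In CD8 KO cells 3.67% were higher and 3.86% lower (5.68% and 6.08%), and in CD8 WT cells 8.21% and 7% (13.3% and 11.4%). The medians of the members' differences were 0.04, -0.10, 0.05 and -0.06 on the log2 scale. Without CD8 KO 18 h replicate 2, the library that stood apart, 7 members were called in CD8 KO cells: Slc19a1, Slc19a2, Slc30a4 and Slc39a4 higher and Slc14a1, Slc35c1 and Slc9a3r1 lower. Any other CD8 KO call given below was lost without it. Without CD8 KO 0 h replicate 1, 4 were called, without CD8 KO 18 h replicate 1, 33, and without CD8 WT 18 h replicate 2, 9 were called in CD8 WT cells. Markers moved with stimulation as well: of 3 T cell receptor complex genes 3 were lower at 18 h in CD4 KO and in CD4 WT cells, 1 in CD8 KO and 2 in CD8 WT cells, and of 4 genes listed for regulatory T cells Il2ra and Ctla4 were higher in all 4 comparisons. Of 5 thymocyte genes, Dntt and Cd1d1 were lower in CD4 KO and CD4 WT cells, Dntt in CD8 KO and Cd1d1 in CD8 WT cells, and the NK cell marker Fcgr3 was lower in CD4 KO, CD4 WT and CD8 WT cells. Of the 8 memory and effector genes, 2 were higher in CD4 KO cells, 3 higher and 4 lower in CD4 WT cells, 1 higher and 1 lower in CD8 KO cells and 2 higher and 2 lower in CD8 WT cells. The part of these markers was not tested.

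**Figure D3:**
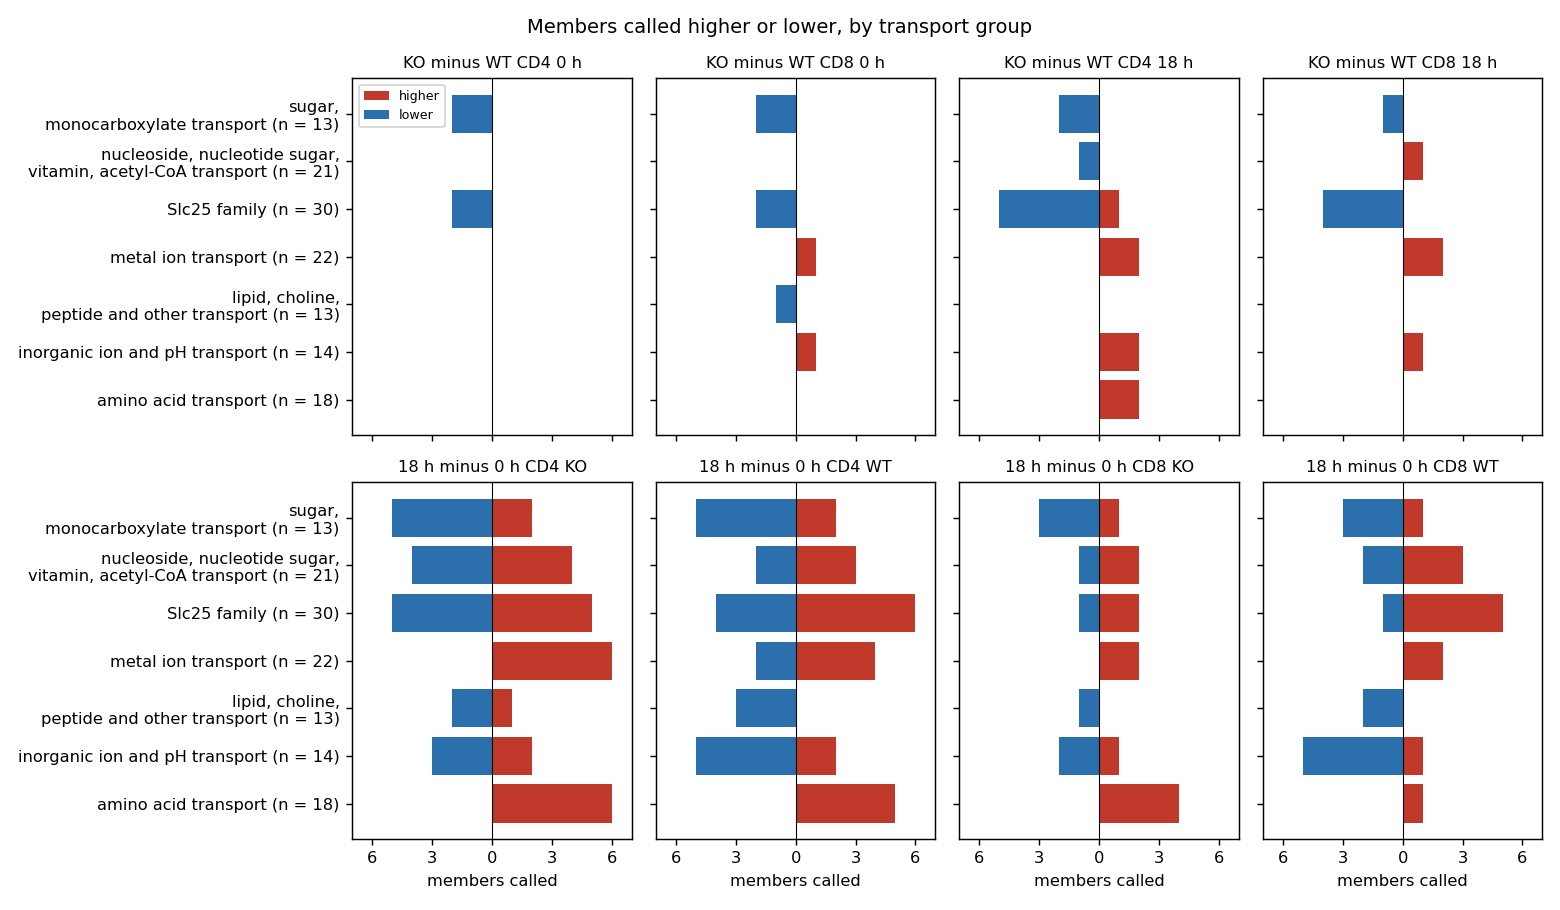
Number of members called higher (red, to the right) and lower (blue, to the left) in each comparison, by transport group. The upper row holds KO minus WT and the lower row 18 h minus 0 h. The amino acid group has red bars alone, up to 6 of 18 members in CD4 KO cells. Slc7a3 and Slc1a4, which passed the level limit through 18 h groups, are among these 6.

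Amino acid transporters that were called after stimulation had all risen: 6 of 18 in CD4 KO cells, 5 in CD4 WT cells, 4 in CD8 KO cells and 1 in CD8 WT cells. Slc7a3 and Slc1a4 are among these. Their 0 h group means all lay under the level limit, and they passed it through 18 h groups, Slc7a3 through those of KO cells. Without them 4, 4, 2 and 1 of 16 remain. Of the genes with a mean of at least 5, 17.1%, 19.7%, 5.68% and 13.3% were higher in these comparisons. The shares lower were 21.3%, 22.2%, 6.08% and 11.4%. These shares stand beside the counts of the other transport groups below as well. Whether a group differs from other genes was not tested. Slc7a5 read 9.59 and 9.36 in CD4 WT cells at 18 h and 7.74 and 7.35 at 0 h, and 8.79 and 9.36 in CD8 WT cells at 18 h and 7.38 and 7.13 at 0 h. No 18 h array reached down to the 0 h arrays. It rose by 1.93 ± 0.29 in CD4 WT cells (adjusted p = 0.000294) and by 1.82 ± 0.29 in CD8 WT cells (adjusted p = 0.00128), and by 2.04 ± 0.29 in CD4 KO cells and 1.15 ± 0.29 in CD8 KO cells, where the difference was 0.64 without CD8 KO 18 h replicate 2 (adjusted p = 0.206). Slc3a2 rose by 1.82 ± 0.19 in CD4 KO cells and 0.78 ± 0.19 in CD4 WT cells. Slc1a5, the glutamine transporter ASCT2, rose by 1.90 ± 0.18 in CD4 KO cells and 0.84 ± 0.18 in CD4 WT cells. The difference of the Slc1a5 response between CD4 KO and CD4 WT cells, 1.06 ± 0.26, and that of Slc3a2, 1.04 ± 0.27, did not pass (adjusted p = 0.0775 and 0.103). With the replicate number as a block that of Slc1a5 did pass (adjusted p = 0.0350 within each lineage and 0.0352 by lineage, genotype and number). At 0 h Slc1a5 read 7.48 and 7.89 in CD4 KO cells and 8.24 and 8.23 in CD4 WT cells.

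Slc7a3 and Slc1a4 were members only because of their 18 h levels, so their differences are a description. Slc7a3 differed by 3.26 ± 0.61 in CD4 KO cells and 1.05 ± 0.61 in CD4 WT cells, and by 2.85 ± 0.61 in CD8 KO cells and 1.04 ± 0.61 in CD8 WT cells. Slc1a4, the neutral amino acid transporter ASCT1, read 7.33 and 7.07 in CD4 KO cells at 18 h and 4.98 and 4.32 at 0 h (2.54 ± 0.48). In CD4 WT cells it read 6.40 and 5.46 at 18 h and 3.67 and 4.64 at 0 h (1.77 ± 0.48). Neither response differed between KO and WT by the test of the difference. Slc38a2 stayed between 9.60 and 10.23 in all 16 arrays and was not called.

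Of 21 carriers of vitamins, nucleosides and nucleotide sugars, 4 rose and 4 fell in CD4 KO cells, 3 rose and 2 fell in CD4 WT cells, 2 rose and 1 fell in CD8 KO cells and 3 rose and 2 fell in CD8 WT cells. Slc19a1, the reduced folate carrier, read 10.27 and 10.33 in CD4 KO cells at 18 h and 7.91 and 7.56 at 0 h, and 10.15 and 10.20 in CD4 WT cells at 18 h and 8.05 and 8.04 at 0 h. It rose by 2.57 ± 0.20 and 2.13 ± 0.20 in CD4 KO and WT cells, and by 1.46 ± 0.20 and 1.38 ± 0.20 in CD8 KO and WT cells, and each of these calls held in all 16 runs that left out an array. A second probe set of Slc19a1 gave 2.37, 2.14, 1.27 and 1.76. Slc19a2, a thiamine transporter, rose by between 2.04 and 2.62 in the 4 comparisons. Slc29a1, an equilibrative nucleoside transporter, rose by 2.62 ± 0.36 in CD4 KO cells, 1.75 ± 0.36 in CD4 WT cells and 1.52 ± 0.36 in CD8 WT cells. In CD8 KO cells at 18 h its arrays read 6.63 and 5.27, against 5.73 and 5.45 at 0 h, so they overlapped.

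In the group of sugar and monocarboxylate carriers, members moved in opposite directions. Slc16a1, the lactate and pyruvate transporter MCT1, read 10.82 and 10.84 in CD4 KO cells at 18 h and 8.67 and 8.52 at 0 h, and 11.08 and 10.82 in CD4 WT cells at 18 h and 8.77 and 8.48 at 0 h. It rose by 2.23 ± 0.17 in CD4 KO cells (adjusted p = 1.65e-06) and 2.33 ± 0.17 in CD4 WT cells (adjusted p = 1.63e-06). In CD8 cells, where its 0 h level was 9.48 to 9.66, it rose by 0.69 ± 0.17 in KO and 0.95 ± 0.17 in WT. Slc2a3 fell by 0.84 in CD4 KO cells, by 0.89 in CD4 WT cells and by 0.92 in CD8 WT cells, each with a standard error of 0.19. Slc50a1 fell by 2.04 in CD4 KO cells, by 1.15 in CD4 WT cells and by 0.69 in CD8 WT cells, each with a standard error of 0.18. Slc2a9, a urate transporter of the glucose transporter family, fell by 1.75 ± 0.30 in CD4 KO cells and by 1.33 ± 0.30 in CD4 WT cells. Its mean of 5.05 lay just over the level limit, with arrays from 3.92 to 6.17. It could thus pass through the groups where it was high, and its fall is a description. Slc5a6, which carries biotin and pantothenate, rose by 1.61 ± 0.24 in CD4 KO cells and 1.41 ± 0.24 in CD4 WT cells. In this group of 13, the called members counted 2 higher and 5 lower in each genotype of CD4 cells, Slc2a9 among the lower. In each genotype of CD8 cells 1 was higher and 3 were lower.

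Slc25 members were called in both directions, 5 higher and 5 lower of 30 in CD4 KO cells, 6 and 4 in CD4 WT cells, 2 and 1 in CD8 KO cells and 5 and 1 in CD8 WT cells. Slc25a33, which brings pyrimidine nucleotides into mitochondria, rose by 2.71 ± 0.26 in CD4 KO cells and 2.42 ± 0.26 in CD4 WT cells, and by 1.30 ± 0.26 and 1.40 ± 0.26 in CD8 KO and WT cells. Its 18 h arrays lay between 7.07 and 8.21 and its 0 h arrays between 5.11 and 6.31. The abundant Slc25a5 rose by 0.83 ± 0.14 in CD4 KO cells, 0.99 ± 0.14 in CD4 WT cells and 0.78 ± 0.14 in CD8 WT cells. Slc25a45 fell by 1.51 in CD4 KO cells, by 2.34 in CD4 WT cells and by 0.83 in CD8 WT cells, each with a standard error of 0.21, and differed by -0.02 ± 0.21 in CD8 KO cells. Slc25a23, an ATP-Mg and phosphate carrier, fell by 1.71 ± 0.28 in CD4 KO cells and by 1.76 ± 0.28 in CD4 WT cells. Slc25a17 fell by 1.15 ± 0.27 in CD8 KO cells (adjusted p = 0.0209), while in CD8 WT cells its difference was 0.38 ± 0.27, and without CD8 KO 18 h replicate 2 the KO call was lost (-0.77, adjusted p = 0.152).

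**Figure D4:**
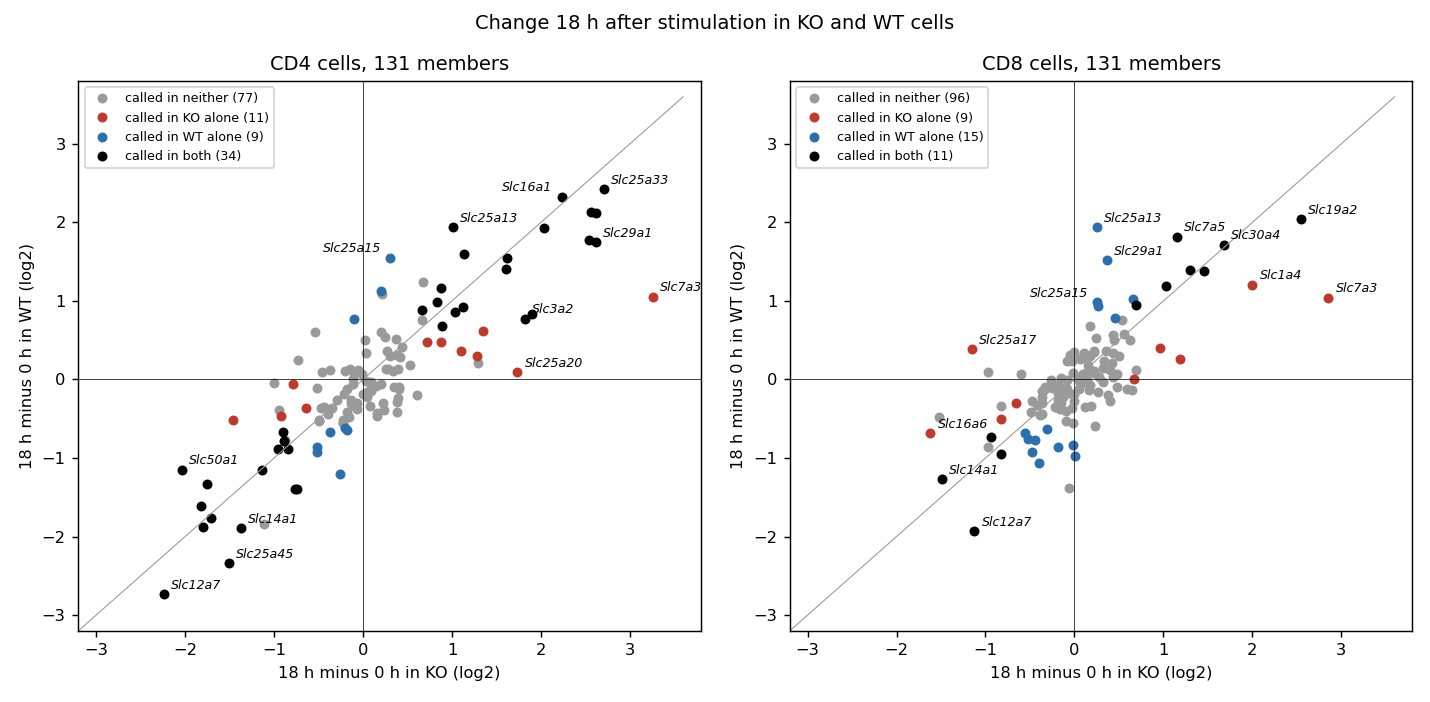
Difference between 18 h and 0 h (log2) of the 131 members in KO (x axis) and WT cells (y axis), in CD4 cells on the left and CD8 cells on the right, coloured by where the member was called. The diagonal marks equal differences. Slc25a20 lies at 1.74 in CD4 KO and 0.09 in CD4 WT cells, below the diagonal, and Slc25a15 at 0.30 and 1.55, above it.

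Of the 14 members of the ion group 2 were higher and 3 lower in CD4 KO cells at 18 h, 2 and 5 in CD4 WT cells, 1 and 2 in CD8 KO cells and 1 and 5 in CD8 WT cells. Slc12a7, a potassium and chloride cotransporter, read 6.67 and 6.93 in CD4 KO cells at 18 h and 8.79 and 9.29 at 0 h, and 6.59 and 6.97 in CD4 WT cells at 18 h and 9.40 and 9.63 at 0 h. It fell by 2.24 ± 0.30 in CD4 KO cells and by 2.74 ± 0.30 in CD4 WT cells, a 6.66-fold lower level in the WT cells (adjusted p = 2.62e-05). In CD8 cells it fell by 1.13 ± 0.30 in KO and by 1.93 ± 0.30 in WT. Slc12a2, which brings sodium, potassium and chloride into the cell, rose in all 4 comparisons, by 1.62 ± 0.26 and 1.55 ± 0.26 in CD4 KO and WT cells and by 1.02 ± 0.26 and 1.19 ± 0.26 in CD8 KO and WT cells. The phosphate transporter Slc20a1 fell in all 4, by 0.83 to 1.16. The scaffold Slc9a3r1 fell by 1.82 ± 0.22 in CD4 KO cells and by 1.62 ± 0.22 in CD4 WT cells.

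Slc44a2 and the urea transporter Slc14a1 were among the members that fell furthest. Slc44a2 read 9.70 and 9.69 in CD4 KO cells at 18 h and 11.49 and 11.50 at 0 h, and 9.60 and 9.74 in CD4 WT cells at 18 h and 11.66 and 11.45 at 0 h. It fell by 1.80 ± 0.22 in CD4 KO cells and by 1.88 ± 0.22 in CD4 WT cells. In CD8 WT cells it fell by 1.07 ± 0.22 (adjusted p = 0.00511), with 10.80 and 10.02 at 18 h and 11.56 and 11.39 at 0 h. Slc14a1 fell in all 4 comparisons, by 1.37 ± 0.28 and 1.89 ± 0.28 in CD4 KO and WT cells and by 1.49 ± 0.28 and 1.27 ± 0.28 in CD8 KO and WT cells.

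Among metal carriers, 6 of 22 rose in CD4 KO cells and none fell, while 4 rose and 2 fell in CD4 WT cells, and 2 rose in each genotype of CD8 cells. Slc30a4 rose in all 4 comparisons, by 0.89 ± 0.20 and 0.69 ± 0.20 in CD4 KO and WT cells and by 1.68 ± 0.20 and 1.72 ± 0.20 in CD8 KO and WT cells. The zinc importer Slc39a6 rose by 1.12 ± 0.19 in CD4 KO cells and by 0.93 ± 0.19 in CD4 WT cells, with 9.46 and 9.75 at 18 h against 8.63 and 8.34 at 0 h in CD4 KO cells. Slc31a1, the copper importer, rose by 1.13 ± 0.29 in CD4 KO cells, by 1.6 ± 0.29 in CD4 WT cells and by 0.94 ± 0.29 in CD8 WT cells. Most CD4 calls of the stimulation held in all 16 runs that left out an array. Among those named here, Slc31a1, Slc30a4, Slc2a3 and Slc25a13 in CD4 KO cells and Slc30a4, Slc3a2, Slc1a4 and Slc2a9 in CD4 WT cells were lost without at least 1 array.

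**Figure D5:**
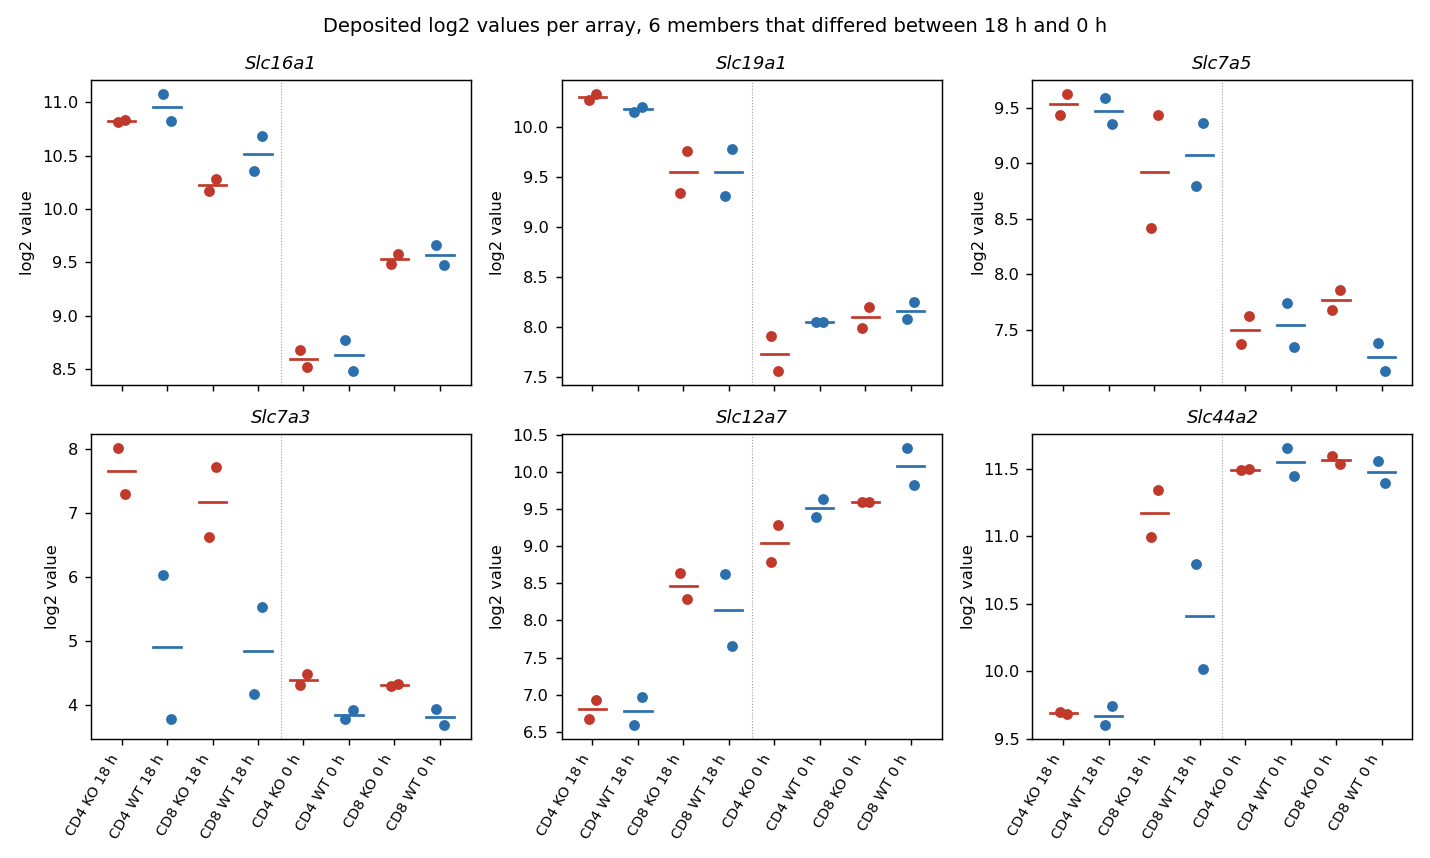
Deposited log2 value of each array (points) and group mean (bars) for Slc16a1, Slc19a1, Slc7a5, Slc7a3, Slc12a7 and Slc44a2, with the 18 h groups left of the dotted line, KO in red and WT in blue. Slc16a1 starts higher in CD8 than in CD4 cells at 0 h, and Slc7a3 at 18 h reads 8.02 and 7.29 in CD4 KO cells and 6.04 and 3.78 in CD4 WT cells.

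Responses in KO and WT cells were set side by side. In CD4 cells 19 members were called higher in both genotypes, 19 of 26 in KO and 19 of 22 in WT, and 15 lower in both, 15 of 19 in KO and 15 of 21 in WT. In CD8 cells 7 were called higher in both, 7 of 12 in KO and 7 of 13 in WT, and 4 lower in both, 4 of 8 in KO and 4 of 13 in WT. Of all genes called higher in CD4 cells, the shared ones were 72.4% of those in KO and 65.8% of those in WT, and of all called lower 73.4% and 68.9%. In CD8 cells these shares were 71.4% and 32% of the higher and 64.7% and 35.7% of the lower. The differences of KO and WT cells, which share no array, correlated over the 131 members with r = 0.85 in CD4 cells and r = 0.72 in CD8 cells, beside r = 0.86 and 0.76 over the genes at that level. By limma's test of the difference between the responses, Slc25a20 was the 1 member called in CD4 cells, where 1.41% of all genes were called, 0.524% of them higher and 0.888% lower. In CD8 cells 0 members were called, with 12 at an unadjusted p under 0.05, and 0.266% of all genes were called. Of the genes with a mean of at least 5, 2.05% were called in CD4 cells and 0.435% in CD8 cells. The next CD4 members after Slc25a20 were Slc1a5 and Slc35c1, at adjusted p of 0.0775 and 0.0798. With the replicate number as a block 4 members were called in CD4 cells: Slc25a20, Slc1a5, Slc35c1 and Slc25a4 (-0.86 ± 0.18, adjusted p = 0.0276) with a block within each lineage, and Slc25a20, Slc1a5, Slc35c1 and Slc39a14 (0.98 ± 0.21, adjusted p = 0.0448) with a block of lineage, genotype and number. The memory and effector genes Cxcr3 and Ahnak were called higher in the CD4 response difference, and Ahnak in that of CD8 cells, and their part was not tested. Of 18 transporters known from T cell activation 15 were members. Among these 9 were higher and 2 lower at 18 h in CD4 KO cells, 8 and 2 in CD4 WT cells, 5 and 1 in CD8 KO cells and 6 and 2 in CD8 WT cells. The 2 lower were Slc2a3 and Slc20a1 where both were called. Of the genes with a mean of at least 5, 17.1% were higher and 21.3% lower in CD4 KO cells and 19.7% and 22.2% in CD4 WT cells. In CD8 KO cells these shares were 5.68% and 6.08%, and in CD8 WT cells 13.3% and 11.4%. Slc7a1 and Slc16a3 lay under the level limit with means of 4.21 and 3.5, and Slc25a32 had no probe set naming it alone.

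Of 26 listed transport genes and regulators without an Slc number, 21 were measured. In KO against WT cells 1 of these was higher and 1 lower in CD4 cells at 0 h, none was called in CD8 cells at 0 h, and 2 were higher and 1 lower in each lineage at 18 h, beside the 1.27%, 1.63%, 6.86% and 2.75% of all genes given above. The cholesterol exporter Abca1 was higher in KO by 1.53 in CD4 cells at 0 h, 3.04 in CD4 cells at 18 h and 1.16 in CD8 cells at 18 h (adjusted p = 0.00747, 1.48e-05 and 0.0190). Timm10, a chaperone for mitochondrial import of carrier proteins, was lower, with log2 differences of -1.62, -2.21 and -1.36 in the same comparisons (adjusted p = 0.0163, 0.000622 and 0.0283). Atf4, a transcription factor of the amino acid stress response, was higher in CD4 KO cells at 18 h by 1.03 ± 0.23 (adjusted p = 0.0180), and Atp1b1, a subunit of the sodium and potassium pump, in CD8 KO cells at 18 h by 0.78 ± 0.14 (adjusted p = 0.0107). With stimulation 7 of the 21 were higher and 7 lower in CD4 KO cells, and 9 and 7 in CD4 WT cells. In CD8 KO cells 2 were higher and 4 lower, and in CD8 WT cells 7 and 5. The shares of all genes by direction are given above, and whether this list differs from other genes was not tested. Among those that rose, the transferrin receptor gene Tfrc rose by 2.82 in CD4 KO cells and 2.95 in CD4 WT cells, and Bsg, the chaperone of Slc16a1, by 1.16 and 0.88.

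The third question was where CD8 and CD4 WT cells differed. At 0 h 4 members did, beside 1.28% of all genes (0.645% higher and 0.637% lower): Slc25a53 (1.53 ± 0.29), Slc16a1 (0.94 ± 0.17) and the iron importer Slc11a2 (0.87 ± 0.15) were higher in CD8 cells, and Slc48a1, a haem transporter, was lower (-0.76 ± 0.16). At 18 h 5 did, beside 3.28% of all genes (2.32% higher and 0.96% lower): Slc25a53 (1.90 ± 0.29), Slc12a7 (1.36 ± 0.30), Slc25a45 (1.15 ± 0.21) and Slc30a4 (1.08 ± 0.20) were higher in CD8 cells and Slc41a1, a magnesium transporter, was lower (-1.11 ± 0.18). The called shares of the members were 3.05% at 0 h and 3.82% at 18 h. Of the genes with a mean of at least 5, 1.85% were called at 0 h and 5.29% at 18 h. Slc25a53, a mitochondrial carrier, read 6.46 and 6.74 in CD8 WT cells and 5.08 and 4.33 in CD4 WT cells at 18 h, and 6.57 and 6.65 in CD8 WT cells and 5.46 and 4.70 in CD4 WT cells at 0 h. Its replicate 1 in CD4 WT cells, the replicate with the raised Cd8a and Cd8b1 signal, was the higher at both times. Its other CD4 WT replicate lay under the level limit of 5 at both times. Slc25a53 could thus pass the limit through the CD8 groups, and its CD8 minus CD4 differences are a description. Some genes listed as markers of other cells differed between the lineages. The B cell marker Cd79b read 5.11 to 7.57 in CD8 arrays and 3.45 to 6.11 in CD4 arrays. It was called higher in CD8 WT cells at 18 h (1 of 5 B cell markers). Nkg7, listed with NK cells, read 10.31 to 11.40 in CD8 arrays and 4.69 to 7.35 in CD4 arrays (1 of 4, called at both times). The other listed NK genes, Ncr1, Fcgr3 and Klrk1, were not called, and Ncr1 read 2.70 to 3.61 in all arrays. Of the 8 memory and effector genes, Ahnak and Il2rb were higher in CD8 WT cells at 0 h and Cxcr3, Ahnak and Gzmb at 18 h, as was the thymocyte gene Cd1d1 at 18 h. Their part was not tested. The 18 h calls of Slc25a53 and Slc41a1 held in all 16 runs that left out an array, with ranges of 1.52 to 2.27 and -1.19 to -1.02, and 2 members in all were called at 18 h without CD8 WT 18 h replicate 1. The 0 h count fell to 0 without either CD8 WT array, and no member was called at 0 h when each array was centred on its median.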

How the data were processed

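Total RNA of sorted T cells was amplified in 2 rounds, biotin labelled and hybridized to 16 Affymetrix mouse arrays. The deposited log2 values per probe set were made by the authors with the R package affy, and the summary method and versions are not given in the sources used here. The authors normalized before deposit, so overall shifts in RNA content are invisible, and fewer cells of a type and less RNA per cell cannot be told apart. No further normalization was applied.

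Of 22690 probe sets, 20393 named 1 gene, 691 several and 1606 none, and 64 were controls. The limma package (3.58.1, R 4.3.3) gave each group its own mean in a single fit of the 16 arrays (lmFit, eBayes), leaving 8 residual and 4.32 prior degrees of freedom. A gene was called at a Benjamini-Hochberg adjusted p under 0.05 over 12394 genes and a fold over 1.5, and the method was tested on simulated data. The number of arrays, 2 per group, sets the precision. Where nothing in the labels says which mice gave which replicate, p-values measure the spread between these samples.

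The members and gene lists were chosen with earlier results of these data known. Named were up to 8 of the highest and 8 of the lowest called members of each comparison, the 5 highest by level, the neighbours of the level limit, 18 transporters of T cell activation, the study's own 8 Slc genes and called members of 26 transport genes and regulators without an Slc number, with a few further members named after their values were seen. Alternatives covered the probe set rule, normalization, array weights, fold limit, replicate block and arrays left out.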

Additional observations from a re-analysis of the deposited data

Results flagged for a closer look

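The response of Slc25a20 to stimulation differed between KO and WT CD4 cells by a test of the difference itself: 1.65 ± 0.26 on the log2 scale (adjusted p = 0.0109 by limma). The 18 h minus 0 h difference was 1.74 in CD4 KO cells, with both 18 h arrays above both 0 h arrays, and 0.09 in CD4 WT cells.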

How the results depend on the processing

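Of 109 named differences in 42 members, 2 changed direction, both of Slc2a3 with plain _at probe sets, where its probe set had a mean of 2.97: 0.13 for KO minus WT in CD4 cells at 18 h and 0.041 for 18 h minus 0 h in CD8 WT cells. Single probe sets disagreed more often. Among called members with several, another had the opposite sign in 1 of 2 (CD8 0 h), 2 of 6 (CD4 18 h) and 1 of 3 (CD8 18 h) for KO minus WT. For 18 h minus 0 h this held for 1 of 21, 4 of 23, 1 of 10 and 2 of 15 in CD4 KO, CD4 WT, CD8 KO and CD8 WT cells. Beside leaving out arrays, 13 alternatives were run, of which the test against 1.5-fold lost 65 of the 109 calls, leaving out 3 arrays 25 and array weights 21. The counts below are members called. Testing against the 1.5-fold limit itself (limma's treat) left 1 for KO minus WT in CD4 cells at 0 h, 0 in CD8 cells at 0 h, 3 in CD4 cells at 18 h and 0 in CD8 cells at 18 h, then 21, 20, 3 and 6 for 18 h minus 0 h in CD4 KO, CD4 WT, CD8 KO and CD8 WT cells, 0 for the CD4 response difference and 0 for CD8 minus CD4 at each time. By the main test, 16 to 34 members had an unadjusted p under 0.05 in the KO and lineage comparisons where this left 0. Array weights gave 1 for KO minus WT in CD8 cells at 18 h, 3 for the CD8 KO stimulation and 3 for the CD4 response difference. Leaving out the 3 arrays with the widest 3′ to 5′ gap gave 3, 5 and 2 for these, and KO minus WT in CD8 cells at 0 h gave 3. Median centring gave 4 there and 0 for CD8 minus CD4 at 0 h, where plain _at probe sets gave 2. The mean of all probe sets gave 2 for the CD4 response difference. Limma called 0 members in the CD8 response difference under each of these settings that was run for it, with 12 at an unadjusted p under 0.05.

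Leaving out each array in turn gave 1 to 5, 0 to 8, 6 to 16 and 1 to 35 members for KO minus WT in CD4 cells at 0 h, CD8 cells at 0 h, CD4 cells at 18 h and CD8 cells at 18 h. For 18 h minus 0 h it gave 35 to 49, 38 to 46, 4 to 33 and 9 to 27 in CD4 KO, CD4 WT, CD8 KO and CD8 WT cells. The response differences gave 0 to 3 in CD4 and 0 to 3 in CD8 cells, and CD8 minus CD4 gave 0 to 7 at 0 h and 2 to 6 at 18 h. A lone array was assumed to vary like the other groups.

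The labels number replicates 1 and 2 but do not say that the numbers pair the samples, and the study's methods, by which a sort was divided between 0 h and 18 h, tie no number to a sort. With 2 numbers per group the replicate block is an alternative. Deviations of same-numbered samples correlated with r between 0.26 and 0.45 within CD4 cells, 0.18 and 0.56 within CD8 cells and -0.60 and -0.12 between lineages, so all within-lineage values were positive. A replicate block within each lineage gave 16 members for KO minus WT in CD8 cells at 18 h and 4 for the CD4 response difference, for which a block of lineage, genotype and number also gave 4. The cause of these shifts was not tested. All other counts under a block stayed within 1.5 times. A crossed pairing between the lineages, chosen after seeing the data, gave 5 members for CD8 minus CD4 at 0 h and 7 at 18 h.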
